A study of Mus musculus with 82 samples.

Results

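Bivalent promoters of hematopoietic stem cells (HSCs) carry H3K4me3 and H3K27me3 together. They were taken here as the TSS-proximal H3K4me3 peaks that share at least 1 bp with an H3K27me3 region. By that rule 4246 of 14684 TSS-proximal H3K4me3 peaks were bivalent (28.9%), among 33199 H3K4me3 peaks in all. They carried the names of 4335 genes and lay in 3634 of 55820 H3K27me3 regions. H3K4me3 is laid down at promoters by COMPASS-family (Trithorax-related) methyltransferases and marks sites of transcription initiation, whereas H3K27me3 is written by Polycomb repressive complex 2 and marks repressed chromatin. Promoters that hold both are typical of stem cells, where they are found at CpG-rich promoters of developmental regulators whose transcripts are low or absent. In blood formation the HSC gives rise to common myeloid progenitors (CMPs), from which granulocyte-macrophage progenitors (GMPs) and megakaryocyte-erythroid progenitors (MEPs) derive.

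The marks were measured by ChIP-seq in 2 young HSC (YHSC) libraries each. RNA came from 4 YHSC and 8 old HSC (OHSC) libraries, from 2 libraries each of young CMPs, GMPs and MEPs, and from OHSCs given a control shRNA or 1 of 2 shRNAs against Btaf1, with 2 libraries per group, after culture (sorted 3.5 days after transduction) and again after transplantation. Accessibility (ATAC-seq) was read in 4 YHSC and 4 OHSC libraries and H3K27ac, a mark of active promoters and enhancers, in 2 of each age. All donors were wild-type male C57BL/6J mice, aged 3 to 4 months (young) or 24 to 26 months (old), and HSCs taken from these mice were sorted from bone marrow as LSK CD34- Flk2- CD150+ cells. For RNA, young mice were pooled whereas an old library came from 1 mouse, so the spread within the 2 ages is of different kinds. The shRNAs were aimed at a shorter Btaf1 variant, which counts per gene do not separate from the canonical transcript, and the cells analysed were GFP+ cells that had received the lentivirus. The transplanted cells were recovered from pooled young female recipients with another gate (LSK CD48- CD150+ CD45.2+).

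RNA libraries held 20475764 to 24654742 gene counts in HSCs taken directly from mice and 33177394 to 42737054 in the others. ATAC libraries held 15427933 to 26260337 counts in consensus regions. Summed markers of long-term HSCs stood at 5040 to 5080 CPM (gene counts scaled to a common library total) in YHSCs and at 4610 to 5100 in OHSCs. Btaf1 was at 137 and 141 CPM in cultured controls against 110 to 119 with either shRNA, and at 161 and 165 CPM in transplanted controls against 118 to 139, so the groups did not overlap in either setting.

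The sequences of 8 promoter windows are shown, chosen among members with a window in the RefSeq table. They belong to the members whose H3K27me3 region had the strongest signal and to those with the largest age differences in RNA. Each is the RefSeq window around the transcription start (build GRCm38.p6, 300 bases, 5′ to 3′ on the strand of the gene), with CpG dinucleotides in capitals.

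Hoxa10, chr6:52234890-52235189, minus strand: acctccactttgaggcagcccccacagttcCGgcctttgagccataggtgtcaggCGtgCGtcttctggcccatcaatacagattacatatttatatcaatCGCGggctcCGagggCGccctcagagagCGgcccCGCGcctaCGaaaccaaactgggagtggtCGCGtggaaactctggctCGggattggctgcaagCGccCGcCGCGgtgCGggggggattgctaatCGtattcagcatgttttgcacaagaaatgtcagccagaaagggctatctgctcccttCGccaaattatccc
Hoxa11, chr6:52245761-52246060, minus strand: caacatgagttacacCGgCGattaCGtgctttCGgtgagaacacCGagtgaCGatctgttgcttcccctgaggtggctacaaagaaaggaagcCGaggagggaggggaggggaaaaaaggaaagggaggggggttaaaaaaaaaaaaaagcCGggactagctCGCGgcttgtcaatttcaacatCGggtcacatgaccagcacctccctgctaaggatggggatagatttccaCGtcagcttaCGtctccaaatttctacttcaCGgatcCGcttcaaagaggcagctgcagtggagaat
Mab21l2, chr3:86548234-86548533, minus strand: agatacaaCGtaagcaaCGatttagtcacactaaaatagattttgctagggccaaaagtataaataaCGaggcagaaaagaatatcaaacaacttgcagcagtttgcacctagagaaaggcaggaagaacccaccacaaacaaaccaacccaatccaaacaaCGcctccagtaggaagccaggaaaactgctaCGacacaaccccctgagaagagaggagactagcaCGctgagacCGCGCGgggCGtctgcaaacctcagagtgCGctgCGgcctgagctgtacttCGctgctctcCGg
Tmem215, chr4:40472880-40473179, plus strand: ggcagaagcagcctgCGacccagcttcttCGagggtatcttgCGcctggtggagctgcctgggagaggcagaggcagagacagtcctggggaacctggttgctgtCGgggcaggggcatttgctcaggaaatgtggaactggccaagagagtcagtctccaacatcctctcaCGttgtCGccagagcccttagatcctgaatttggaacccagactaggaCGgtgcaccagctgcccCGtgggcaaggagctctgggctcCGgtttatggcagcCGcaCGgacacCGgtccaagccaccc
Ntf3, chr6:126166695-126166994, minus strand: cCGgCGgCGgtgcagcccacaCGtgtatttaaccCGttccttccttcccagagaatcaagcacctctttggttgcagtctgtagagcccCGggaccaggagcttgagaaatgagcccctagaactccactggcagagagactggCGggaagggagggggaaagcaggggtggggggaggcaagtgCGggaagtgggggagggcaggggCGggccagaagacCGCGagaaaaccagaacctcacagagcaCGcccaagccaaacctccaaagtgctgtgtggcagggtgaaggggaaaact
Rgs7bp, chr13:105054881-105055180, minus strand: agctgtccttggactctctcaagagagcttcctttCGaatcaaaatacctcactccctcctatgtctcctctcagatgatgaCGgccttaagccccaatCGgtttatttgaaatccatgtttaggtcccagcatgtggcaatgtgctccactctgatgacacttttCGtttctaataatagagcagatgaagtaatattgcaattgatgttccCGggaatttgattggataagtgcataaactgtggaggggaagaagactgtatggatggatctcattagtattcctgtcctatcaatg
Slc38a5, chrX:8271131-8271430, plus strand: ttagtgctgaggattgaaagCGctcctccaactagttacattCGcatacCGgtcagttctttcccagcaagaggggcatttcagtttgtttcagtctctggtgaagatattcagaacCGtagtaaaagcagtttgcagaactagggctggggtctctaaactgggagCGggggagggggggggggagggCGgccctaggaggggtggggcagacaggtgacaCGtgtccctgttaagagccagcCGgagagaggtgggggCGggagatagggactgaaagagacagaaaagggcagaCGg
Chst3, chr10:60219211-60219510, minus strand: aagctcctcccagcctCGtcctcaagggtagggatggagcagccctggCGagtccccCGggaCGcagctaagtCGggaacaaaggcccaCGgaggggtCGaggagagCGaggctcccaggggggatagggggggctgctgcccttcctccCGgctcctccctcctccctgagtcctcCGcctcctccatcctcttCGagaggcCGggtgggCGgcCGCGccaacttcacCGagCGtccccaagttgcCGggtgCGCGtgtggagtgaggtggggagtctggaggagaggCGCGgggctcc

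Hoxa10 and Hoxa11 encode homeobox factors of body patterning. Their windows held 21 and 15 CpGs; the Hoxa11 window lies in the H3K27me3 region but outside the H3K4me3 peak of that member (chr6:52244901-52245574). The windows of Mab21l2, Tmem215 and Ntf3, which were higher in OHSCs, held 14, 12 and 12. Among the genes that were lower in OHSCs, the window of Rgs7bp held 5 CpGs, that of Slc38a5 10 and that of Chst3 22. Over all windows that fell in bivalent promoters (3662), the median was 20 CpGs and 63.7% GC, against 21 CpGs and 61.7% GC over the windows in other H3K4me3 promoters (10946) and 7 CpGs and 52.7% GC over all 32851 RefSeq windows. Over whole H3K4me3 peaks the median GC content was 60.5% at bivalent promoters and 55.9% at the other TSS-proximal peaks, with 5.98 and 5.03 CpGs per 100 bases. GC content was higher at members whose H3K27me3 region had a stronger signal. The median ran from 58.9% in the lowest H3K27me3 quartile of bivalent promoters to 61.9% in the highest.

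A set of 3 motifs of blood transcription factor families were searched on both strands of the windows. The ETS letters CCGGAAGT were in 2.35% of the windows in bivalent promoters, in 9.14% of those in other H3K4me3 promoters and in 3.89% of all windows. The RUNX letters TGTGGT were in 9.86%, 12.1% and 16.8%, and the GATA letters AGATAA in 5.46%, 5.62% and 11.2%, in the same order. Of the 8 windows shown, that of Mab21l2 held the RUNX letters and the others held none of the 3 motifs. None of the 3 motifs contains another, and a match is a run of letters, not a bound site.

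H3K4me3, which was among the marks that chose the members, stood lower at bivalent promoters than at the others. The signal, normalized by the authors to a fixed number of reads per library, had a median of 9.64 and 9.12 in the 2 young libraries at bivalent promoters against 19.5 and 20.4 at the other TSS-proximal peaks. The 2 libraries ranked the members alike (Pearson r 0.987 across promoters for H3K4me3 and 0.989 across 3633 regions for H3K27me3, neither of which are independent replicates). When all TSS-proximal peaks were ordered by H3K4me3, 63.6% of the lowest quartile were bivalent, then 37.5%, 10.6% and 4.06% of the highest. Bivalent peaks had a median length of 1344 bp and the others 1556 bp.

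The H3K27me3 regions of the members had a median signal of 0.798, against 0.389 over all H3K27me3 regions. A member takes the signal of the whole region that shares most bases with its peak, not that of its promoter alone. The H3K27me3 quartiles use this value. Regions of members were also longer, with a median of 33999 bp (each region counted once per promoter) against 3999 bp. A longer region is more likely to meet a peak, so the rule favours such lengths. The extremes lay in the Hoxa cluster, where Hoxa10, Hoxa11 and Hoxa13 share 1 region (chr6:52235000-52278999, mm10, coordinates as deposited) at 4.29 and 4.39 in the 2 libraries. Ajm1 followed at 3.59, Skor1 at 3.30 and Cbx8, which encodes a subunit of Polycomb repressive complex 1, at 3.16. H3K4me3 at these members differed, from 3.25 at Hoxa13 and 3.69 at Hoxa11 to 19.6 at Cbx8 and 30.4 at Hoxa10, whose peak met the region by 1 bp. The strongest H3K4me3 was at the class I histocompatibility genes H2-Q6 (42.5) and H2-Q7 with H2-Q9 (42.1), near-identical genes between which reads may be split. Across the members the marks were weakly opposed (Spearman rho -0.22 over 4246 promoters, which share regions and base composition).

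Most members were not edge cases. Of the peaks, 84.5% lay wholly inside an H3K27me3 region, whereas 148 shared under 200 bp and 422 under 50% of their length. Just inside the rule, Hoxa10 shared 1 bp, Lpcat2 3, Adm2 4 and Reep4 and Vamp4 5 each. Just outside it, 893 TSS-proximal peaks lay within 1000 bp of a region without touching it. Members shared their region with another member in 25.4% of cases, and 1 region held 11. Both marks were called in both ages at 3883 members (91.5%).

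Other marks at the members were measured independently of the rule. An accessible region overlapped 96.9% of bivalent promoters and 98.3% of the others. An H3K27ac peak overlapped 64.9% against 94.4%, and a domain of H3K36me3, a mark of transcribed gene bodies, 4.29% against 34.6%. H3K27ac lay at 83.2% of members in the lowest H3K27me3 quartile and at 45.7% in the highest, and at 27.7% and 97.0% in the lowest and highest H3K4me3 quartile.

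**Figure D1:**
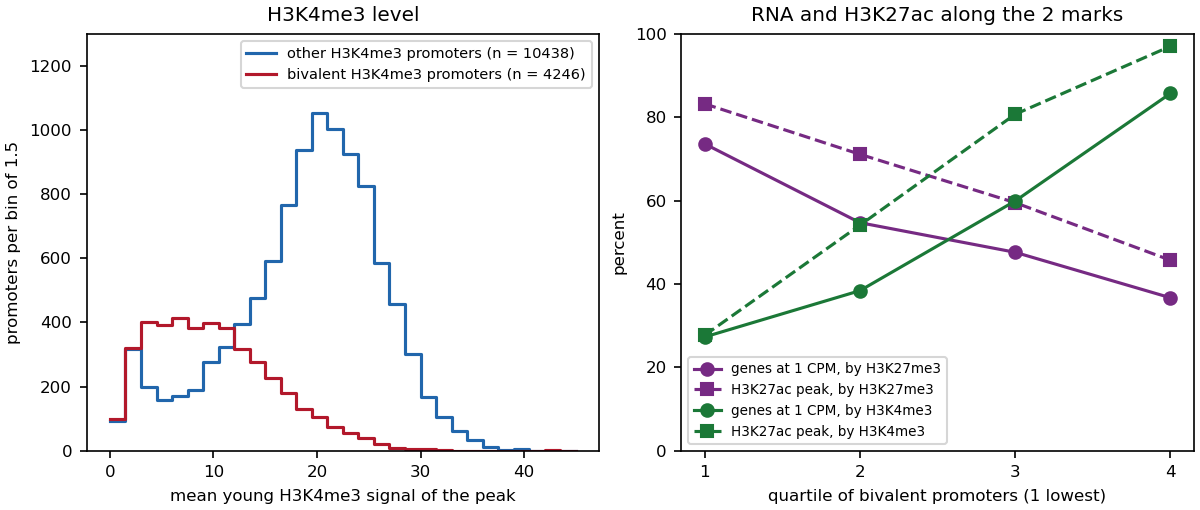
Left, number of TSS-proximal H3K4me3 peaks by mean young H3K4me3 signal, for 4246 bivalent and 10438 other promoters. Right, percent of bivalent promoters with an H3K27ac peak and percent of their genes at 1 CPM in YHSCs, by quartile of each mark. H3K27me3 is the signal of the whole region. The highest H3K27me3 quartile stands at 45.7% and 36.7% and the highest H3K4me3 quartile at 97.0% and 85.7%.

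The members were set against fixed gene lists, which hold a small part of the 4335 genes. Of all genes with a TSS-proximal H3K4me3 peak, 28.0% had a bivalent promoter. Of the H3K4me3-marked genes on each list, bivalent promoters were found for 63 of 69 cadherin, claudin and connexin genes (91.3%), 129 of 146 ion channel and synapse genes (88.4%), 60 of 68 secreted signals of development such as the Wnt and Bmp families (88.2%) and 102 of 119 genes of developmental transcription factor families (85.7%, antisense genes that carry the same symbol stem included). CDK inhibitors and imprinted growth genes followed with 14 of 17 and Hox genes with 20 of 30. Among genes of the blood lineages these were 8 of 14 lymphoid genes, 4 of 10 granulocyte and monocyte genes, 5 of 18 megakaryocyte and erythroid genes and 6 of 31 HSC regulators. None of 9 long-term HSC markers with a promoter peak was bivalent. These shares are descriptions and were not tested.

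Genes with a bivalent promoter were expressed at low levels. Of the 4335 genes, 4266 were in the RNA tables (98.4%). In YHSCs 52.8% of them reached a mean of 1 CPM, against 93.3% of the genes of the other promoters, and the median was 0.23 against 10.2 RPKM (CPM per kilobase of exon). Per length, the highest members in YHSCs were H2-Q6 at 326 ± 6.52 RPKM (SD, n = 4), H2-Q7 at 132 ± 6.25 and Arpc5, which encodes a subunit of the actin-nucleating Arp2/3 complex, at 150 ± 2.06. In bulk samples, fewer cells that express a gene and less RNA per cell cannot be told apart. Along the H3K27me3 quartiles the share at 1 CPM ran from 73.6% to 36.7%, and along the H3K4me3 quartiles from 27.3% to 85.7% (Spearman rho with RPKM -0.30 and 0.55 over 4251 genes, as a description). Without a read in any of the 30 RNA libraries were 32 members.

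The share detected was 51.0% in OHSCs, 37.4 to 38.7% in the cultured groups, 38.5 to 39.1% in the transplanted groups, 29.3% in CMPs, 25.8% in GMPs and 21.7% in MEPs, while the other promoters stayed between 81.7 and 93.3% in the groups of unmanipulated cells. Single libraries ran from 49.2 to 58.7% in YHSCs and from 44.8 to 58.6% in OHSCs. Reads in 1736 olfactory and vomeronasal receptor genes, which blood cells are not known to use, were counted beside these shares. Both were highest in YHSCs and OHSCs. Among the other groups reads and shares did not always move together, since MEPs held more such reads than GMPs but detected fewer members. Such genes summed to 225 to 544 CPM in YHSCs and 108 to 517 CPM in OHSCs, against 12.7 to 42.8 CPM in all other groups, and the 2 libraries with the most of them (YHSC 2 and OHSC 4) also detected the most members. The labels give a total RNA kit for HSC and progenitor libraries and a SMART-Seq kit for the others, while the study's methods name SMART-Seq kits for HSCs too. The part of receptor reads or kit in the shares was not tested, so levels are not ordered between HSCs and the other groups.

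**Figure D2:**
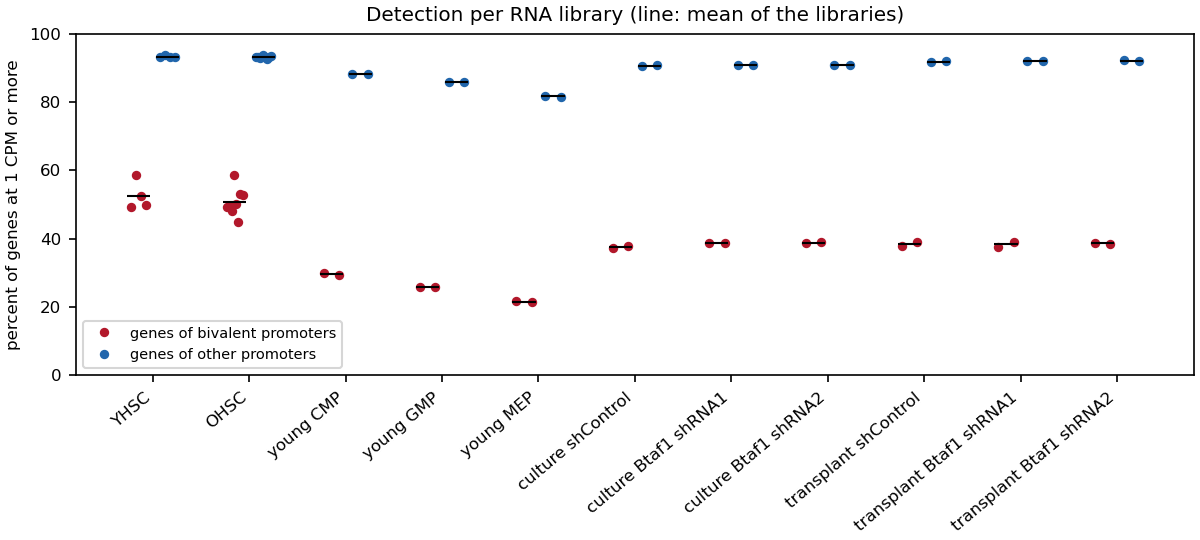
Percent of genes at 1 CPM or more in each of 30 RNA libraries (points) and the mean of those percentages (lines), for genes of bivalent and of other H3K4me3 promoters. Bivalent genes lie at 49.2 to 58.7% in YHSC and 44.8 to 58.6% in OHSC libraries, which overlap; levels are not ordered between HSCs and the other groups.

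RNA of genes with a bivalent promoter was compared between the ages to see which of them change in old HSCs. Of 3115 members tested, 414 rose in OHSCs (13.3%, against 4.69% of all genes tested) and 223 fell (7.16%, against 2.83%), by edgeR's quasi-likelihood test. A call asked for a change of more than 1.5 times with a Benjamini-Hochberg adjusted p under 0.05. At the other H3K4me3 promoters 2.76% rose and 1.73% fell. The median log2 change of the members was -0.01. Without the 3 libraries of most and fewest receptor reads (YHSC 2, OHSC 4 and OHSC 6), an alternative chosen after seeing the data, 412 rose and 208 fell. Of the 4266 members in the RNA tables, 3115 passed the filter on low counts, which a gene can pass through the age where it is high.

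Mab21l2 (peak chr3:86546192-86548684), which encodes a factor of eye development, was at 0.586, 0.586, 0.552 and 0.0829 CPM in the 4 YHSC libraries and at 10.5, 16.8 and 19.4 CPM (lowest, median, highest) in the 8 OHSC libraries. All OHSC libraries lay above all YHSC libraries, a log2 change of 5.18 ± 0.30 (SE, adjusted p = 4.83e-09, edgeR). Sbspon, a gene for a secreted somatomedin B and thrombospondin domain protein, was at 2.30, 3.66, 3.08 and 2.86 CPM in YHSCs and at 63.0, 85.8 and 101 CPM in OHSCs. The groups were again apart, by 4.89 ± 0.19 (adjusted p = 9.56e-10, edgeR). Ntf3, the gene for neurotrophin-3, was at 0.0837, 0.0977, 0.0921 and 0.249 CPM in YHSCs against 2.50, 2.95 and 3.98 in OHSCs, also without overlap (log2 change 4.51 ± 0.30, adjusted p = 5.18e-11, edgeR). Tmem215, Kcnb2 and Gabra4, the last 2 encoding a potassium channel and a GABA receptor subunit, rose by 4.59, 4.45 and 4.19 on the log2 scale, and Gipc2 by 3.85. Osmr, the oncostatin M receptor, was at 2.30 to 4.93 CPM in YHSCs and 30.8 to 41.1 CPM in OHSCs, a log2 change of 3.39 ± 0.16 (adjusted p = 1.53e-10, edgeR).

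The largest decreases were smaller. Rgs7bp, a regulator of G protein signalling complexes, was at 10.6, 11.1, 9.30 and 8.13 CPM in YHSCs and at 0.254, 0.702 and 1.2 CPM in OHSCs. Every OHSC library lay below every YHSC library (log2 change -3.79 ± 0.22, adjusted p = 8.54e-12, edgeR). Ccn3, which encodes a matricellular protein, was at 2.97, 2.39, 2.95 and 4.85 CPM in YHSCs and at 0.0443, 0.264 and 0.447 CPM in OHSCs, apart by -3.66 ± 0.32 (adjusted p = 5.09e-09, edgeR). Slc38a5, an amino acid transporter, fell by 3.15, and Atp1b2, a sodium pump subunit, by 3.11. Cd83, a surface protein of activated antigen-presenting cells, fell by 2.90 and Ikzf3, a lymphoid transcription factor, by 2.72. Chst3 fell by 2.68 and Sphk1, sphingosine kinase 1, by 2.67.

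**Figure D3:**
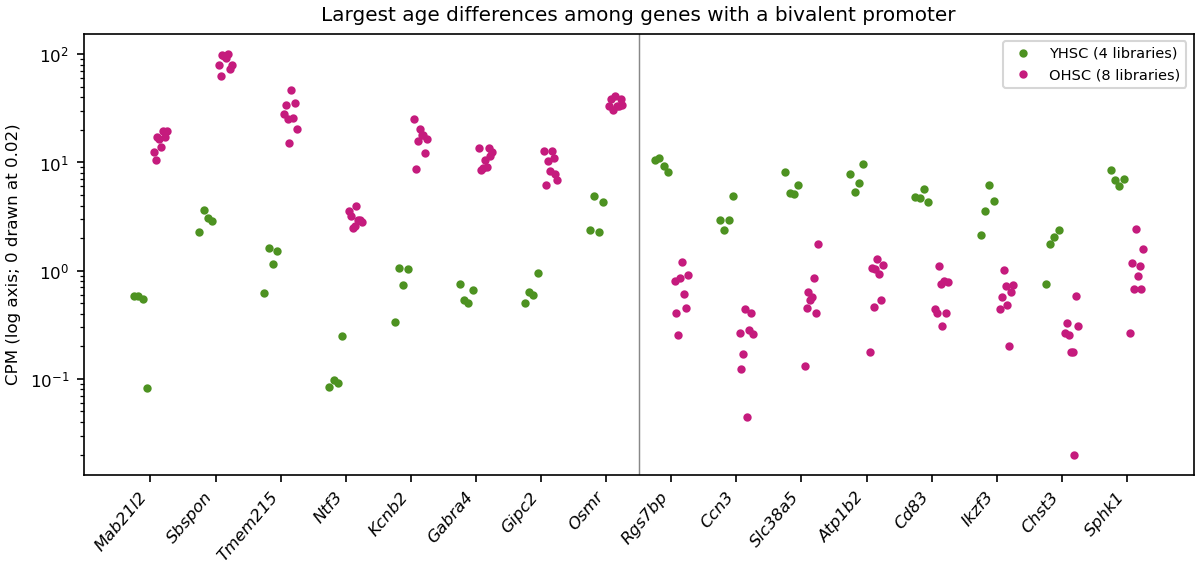
CPM (log axis) in each YHSC (4) and OHSC (8) library for the 8 largest increases and the 8 largest decreases among genes with a bivalent promoter whose libraries did not overlap. Mab21l2 stands at 0.0829 to 0.586 CPM in YHSCs and 10.5 to 19.4 CPM in OHSCs, and 1 OHSC library has no Chst3 read.

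By list, 8 of 44 tested cadherin, claudin and connexin members rose and none fell (median log2 change 0.15, against -0.01 over all genes). Among them Cldn5, a tight-junction protein of endothelium, rose from 6.65 to 10.2 CPM to 56.3 to 82.2 CPM (log2 change 3.07 ± 0.13, adjusted p = 6.64e-11, edgeR). Of 98 ion channel and synapse members 12 rose and 5 fell, and of 32 secreted signals 6 rose and 3 fell, beside 13.3% and 7.16% of all members. Bmp4, a ligand of the TGF-beta family, rose by 1.91 ± 0.11 and Wnt5a by 1.82 ± 0.32, while Bmp8a fell by 1.43 ± 0.25. Of 35 developmental transcription factor members 4 rose, Foxd2 and Twist1 among them, and 1 fell. None of 6 tested Hox members passed the test in either direction. Of 4 megakaryocyte and erythroid members Osmr rose and 1 fell, and none of 6 HSC regulators or 4 granulocyte and monocyte members passed.

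Of 7 tested lymphoid members none rose and 3 fell, beside 7.16% of all members that fell. Of the whole list, bivalent or not, 8 of 20 fell and 0 rose. Satb1, a chromatin organizer of lymphoid cells, went from 14.3 to 16.4 CPM in YHSCs to 3.81 to 5.76 CPM in OHSCs (log2 change -1.57 ± 0.11, adjusted p = 1.23e-10, edgeR), Ebf1, a B cell factor, fell by 2.22 ± 0.40 and Flt3, the receptor that the sort selected against, fell by 0.90 ± 0.10. The sum of 12 B cell markers was 99.4 to 189 CPM in YHSCs and 38.5 to 47.1 CPM in OHSCs. Of the 12, 9 were lower in OHSCs and none was at 0 in either age. The part of this sum in the decrease of the lymphoid members, and of Cd83 and Ikzf3 outside that list, was not tested. Summed neutrophil markers were 5.23 to 199 CPM (median 58.1) in YHSCs and 4.02 to 105 CPM (median 8.04) in OHSCs, with 0 of 7 tested called and none at 0, and their part was not tested either. Among CDK inhibitors and imprinted growth genes, Cdkn2c, an inhibitor of CDK4 and CDK6, rose by 1.72 ± 0.12, and H19, Plagl1 and Igf2 fell by 2.62, 1.93 and 0.95.

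Calls with age were counted along the marks. In the lowest H3K27me3 quartile 8.56% of tested members rose and 13.5% fell, whereas in the next quartiles 15.7%, 15.2% and 15.7% rose and 5.85%, 3.54% and 3.81% fell. By H3K4me3 quartile, from the lowest to the highest, 8.77%, 15.1%, 16.7% and 12.5% rose and 5.19%, 5.85%, 8.31% and 8.38% fell. The 47 members whose H3K27me3 region was called in OHSCs alone all lie in the lowest quartile of young signal, among 1062. Of 136 members whose region was called in YHSCs alone, 102 lie there too. The rule takes calls of either age and so lets both kinds in. These shares are described without a test.

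**Figure D4:**
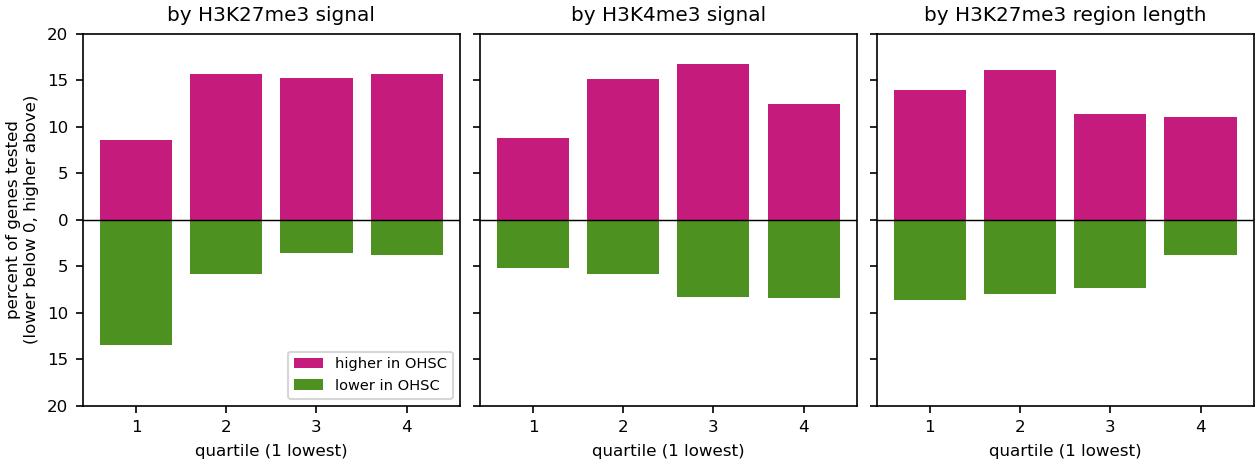
Percent of tested members that rose or fell in OHSCs by quartile of young H3K27me3 signal of the whole region, H3K4me3 signal and H3K27me3 region length. Decreases are most frequent in the lowest H3K27me3 quartile (13.5%).

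Accessibility was measured apart from the 2 marks that chose the members. Of 4545 tested regions at bivalent promoters, 166 were more accessible in OHSCs (3.65%, against 10.1% of all regions) and 116 less (2.55%, against 2.9%), where a call asked for more than 1.5 times and an adjusted p under 0.01. The median log2 change over these regions was -0.09, with 34.4% above 0 (-0.01 and 48.7% over all regions), and without the filter on low counts 155 were called more and 148 less accessible. At other H3K4me3 promoters 0.361% of regions opened and 1.59% closed. Their median log2 change was lower still, at -0.15 with 13.6% above 0, so a shift below 0 is not particular to bivalent promoters. The largest increase was at Grm7, a glutamate receptor, which went from 1.31 ± 0.29 to 6.76 ± 1.54 CPM (SD, n = 4 each; log2 change 2.32 ± 0.19, adjusted p = 3.12e-15, edgeR). Epha6 rose by 2.02, Dpp6 by 1.86 and Olfm3 by 1.82. The region at 2410018L13Rik fell from 5.50 ± 0.33 to 0.569 ± 0.211 CPM, a log2 change of -3.27 ± 0.22, and those at Gnasas1, Rps4l and 9030624G23Rik fell by 1.88, 1.77 and 1.41.

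H3K27ac was not used by the rule either. Its peaks at bivalent promoters were higher in OHSCs in 227 of 2859 cases (7.94%, against 9.11% of all peaks) and lower in 63 (2.2%, against 2.27%). That rule asks for a ratio of means above 1.5 and at least 1.2 between each old and each young library, without a test, on 2 libraries per age. The counts turned on single libraries, with 621 higher without young replicate 1 and 232, 127 and 95 lower without young replicate 2, old replicate 1 and old replicate 2, and adding 0.5 to every signal gave 114 higher and 32 lower. Of the peaks past it 78.3% were higher; with libraries scaled to the same median this was 60.6%. At other H3K4me3 promoters 0.946% were higher. The largest ratio of means was at Lsamp, a neural adhesion gene (0.221 ± 0.164 to 1.34 ± 0.03, log2 ratio 2.60), followed by Fam169a (1.27 ± 0.49 to 5.44 ± 0.07, 2.10), Zfp503 and Kcnb2. With 0.5 added to the signals the order turned, at a limma log2 change of 1.78 for Fam169a (adjusted p = 8.94e-08) and 1.37 for Lsamp (adjusted p = 0.00189). Lin28b, an RNA-binding regulator of fetal blood formation, went from 1.73 ± 0.40 to 0.468 ± 0.106 (log2 ratio -1.89, and -1.20 by limma with 0.5 added, adjusted p = 0.00234).

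Chromatin at the members whose RNA changed was then read, beside medians over all bivalent promoters of 0.06 for H3K27ac and -0.09 for accessibility. At the 414 members that rose, 378 H3K27ac peaks had a median log2 ratio of 0.35 and 325 of them were above 0. Of these peaks 89 were called higher and 0 lower. The higher calls made up 23.5% of these peaks, beside 7.94% of all peaks at bivalent promoters. Their 496 accessible regions had a median log2 change of 0.02, with 29 called more accessible (5.85%, against 3.65% at all bivalent promoters and 10.1% of all regions) and 5 less (1.01%). At the 223 members that fell, 201 H3K27ac peaks had a median of -0.27 and 277 regions a median of -0.23, with 29 regions called less accessible (10.5%, against 2.55% at all bivalent promoters) and 0 more. Of the 201 peaks 49 were above 0, 24 were called lower (11.9%, against 2.2%) and 2 higher (0.995%). RNA, accessibility and H3K27ac rose together at 18 members, among them Gabra4, Kcnb2, Tmem215 and the metallothionein genes Mt1 and Mt2, and fell together at 12, among them Rgs7bp, Lin28b, Igf2bp2 and Socs2. Single genes differed: Kcnb2 rose in accessibility from 9.84 ± 1.14 to 27.3 ± 2.17 CPM (log2 change 1.46, adjusted p = 1.48e-20, edgeR) and Gabra4 by 0.85, while the region at Sbspon changed by 0.09 (adjusted p = 0.443, edgeR) and its H3K27ac went from 3.49 ± 0.09 to 5.96 ± 0.28 (log2 ratio 0.77) beside an RNA change of 4.89.

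Between progenitors, more than 60% of tested members were called in MEPs against GMPs. Of 1797 members tested, 429 were higher in MEPs (23.9%, against 16.6% of all genes) and 737 lower (41.0%, against 27.2%). Of the 4266 members in the RNA tables, only these 1797 passed the filter on low counts. A gene can pass it through the progenitor where it is high, so the shares are of the members tested. The same holds for the groups of the knockdown comparisons. Against CMPs, 382 were higher in MEPs (21.3%, against 17.5%) and 821 lower (45.7%, against 29.2%). GMPs against CMPs gave 211 higher (11.7%, against 6.24%) and 338 lower (18.8%, against 10.5%). These comparisons share libraries, and their values are given side by side. Epor, the erythropoietin receptor, was at 192 ± 5.78 CPM in MEPs, 19.4 ± 2.82 in CMPs and 0.426 ± 0.165 in GMPs (SD, n = 2 each). Myeloid members ran the other way, with Irf8 at 472 ± 91.5 CPM in GMPs and 0.691 ± 0.417 in MEPs and Cebpa at 65.2 ± 12.8 and 0.113 ± 0.080.

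By list, all 3 tested megakaryocyte and erythroid members were higher in MEPs than in GMPs and all 4 granulocyte and monocyte members lower. The former had a median log2 change of 8.71, against -0.03 over all genes, and of the latter Klf4 had no read in MEPs. Gp5, a platelet glycoprotein, was at 59.9 CPM in CMPs, 39.1 in MEPs and 1.05 in GMPs. Of 20 cadherin, claudin and connexin members 4 were higher in MEPs than in GMPs and 8 lower, of 34 ion channel and synapse members 6 and 13, and of 12 secreted signals 1 and 5. Over all members the shares were 23.9% and 41.0%, and these lists were not tested against them. Gfi1, a transcriptional repressor needed for granulocyte development, stood at 88.9 ± 11.4 CPM in GMPs, 30.5 ± 4.38 in CMPs and 0.113 ± 0.080 in MEPs. The lymphoid members Flt3 and Satb1 were highest in CMPs, Flt3 at 202 ± 19.1 CPM against 15.8 ± 0.45 in GMPs and 0.875 ± 0.276 in MEPs, and Satb1 at 91.9 ± 1.49, 35.9 ± 5.22 and 0.974 ± 0.023 in the same order. The groups of 2 libraries did not overlap for any of these values. In GMPs against CMPs, Mogat2 was higher by 5.00 and Prom1, the gene for the surface protein prominin, by 4.07 on the log2 scale.

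Several members had no read in 1 progenitor. Sh3tc2 stood at 56.4 and 57.1 CPM in MEPs with no read in GMPs, which is at least 1300-fold higher (floor of 3 reads over the group; floors and intervals cover counting error only). Acsl6 and Agtr1a, the angiotensin II receptor, were at least 815-fold and 437-fold higher in MEPs than in GMPs. In GMPs, Chst13 was at 52.8 and 53.4 CPM with no read in MEPs, at least 1260-fold higher, and Kcnip3 at least 1020-fold.

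Knockdown of Btaf1 in cultured OHSCs was compared with the control shRNA, both shRNAs forming 1 group. Of 2362 members tested, 80 rose (3.39%, against 1.1% of all genes) and 45 fell (1.91%, against 0.617%). Leaving out control 1 or control 2 left 27 or 25 that fell. Wnt2 was at 1.40 and 1.21 CPM in the controls and at 4.05, 4.19, 3.52 and 4.59 CPM with the shRNAs. The groups did not overlap (log2 change 1.62 ± 0.22, adjusted p = 7.51e-06, edgeR). Id3, an inhibitor of basic helix-loop-helix factors, rose from 54.5 ± 0.98 to 161 ± 9.38 CPM (n = 2 and 4; log2 change 1.54 ± 0.05, adjusted p = 2.75e-18, edgeR), and Tcf24 went from no read to 0.812 CPM, at least 21.5-fold higher. Cdkn1c and Dlk1, imprinted genes that restrain growth or differentiation, fell by 0.59 ± 0.10 and 0.76 ± 0.09, while Peg3, also imprinted, rose by 1.02 ± 0.18, so that of 10 tested members of that list 1 rose and 2 fell. Gfi1, an HSC transcription factor, fell by 0.69 ± 0.11. By list, 4 of 44 ion channel and synapse members rose and 2 fell, 0 of 23 developmental transcription factor members and 0 of 33 cadherin, claudin and connexin members passed the test, and of 26 secreted signals Wnt2 rose. The age and culture comparisons share no libraries. Of the members that rose with age, 30 also rose after knockdown (7.25% of the age list, 37.5% of the culture list), Bcl6, Id2, Gipc2 and Tmem215 among them, and 6 fell (1.45% and 13.3%). Of those that fell with age, 12 rose after knockdown (5.38% and 15%) and 6 fell (2.69% and 13.3%), Axl, a receptor tyrosine kinase, and Ccn3 among the latter. Over all genes, 57 rose in both (5.64% of the age list, 26.1% of the culture list), 13 rose with age and fell after knockdown (1.29% and 10.7%), 23 did the opposite (3.78% and 10.6%) and 20 fell in both (3.29% and 16.4%), and the overlaps were not tested.

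After transplantation 0 of 2376 members passed the edgeR test in either direction (0.0% higher and 0.0% lower over all genes). At an unadjusted p under 0.05 there were 277 members and 1507 genes in all. DESeq2 called 15 of 2376 members and edgeR without the filter on low counts 88 of 3390. Calls over all genes were not counted for these alternatives, so their counts are no result about the members. Summed neutrophil markers were 6.28 and 112 CPM in the 2 control libraries, 176 and 552 with shRNA1 and 80.3 and 424 with shRNA2, and their part in the result was not tested.

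**Figure D5:**
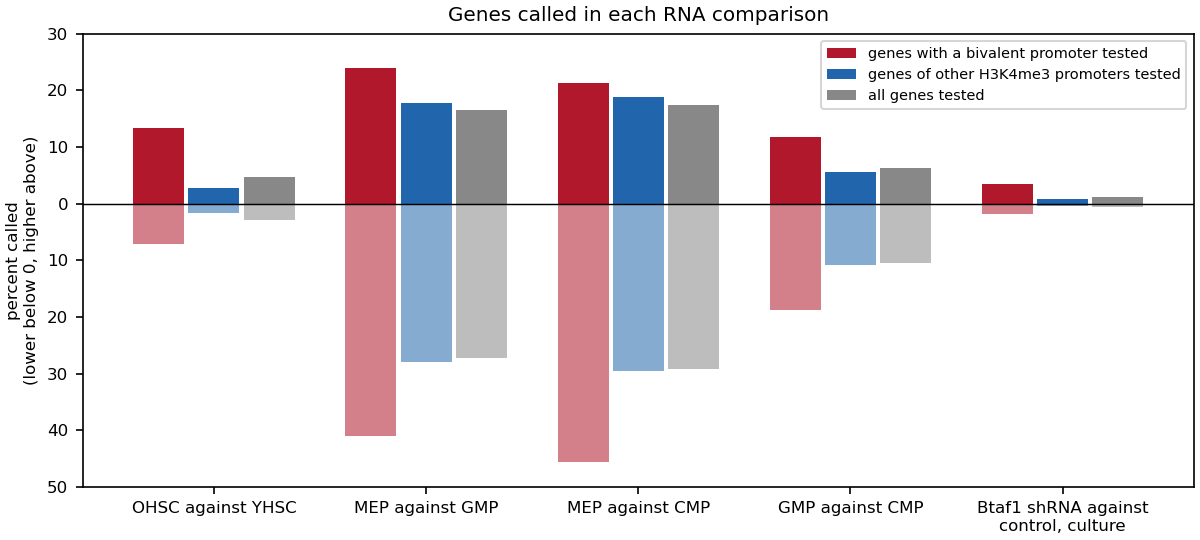
Percent of tested genes called higher (above 0) or lower (below 0) in 5 RNA comparisons, for genes with a bivalent promoter, genes of other H3K4me3 promoters and all genes. Member percentages stand at 13.3% against 4.69% higher in OHSCs and 41.0% against 27.2% lower in MEPs than in GMPs.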

How the data were processed

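The authors deposited raw read counts per gene for each RNA library, made with trim galore, cutadapt, STAR on mm10 and featureCounts with GENCODE, and raw counts per consensus region for ATAC-seq, made with cutadapt, BWA and MACS. How strand and multi-mapping reads were handled is not stated in the sources here. For H3K4me3, H3K27me3 and H3K27ac the deposited tables hold a signal per peak in each library, normalized by the authors to a fixed number of reads, with narrow peaks from MACS or, for H3K27me3, broad regions from IDEAS. H3K36me3 was deposited as other values, the start and end of each domain only. Columns with the authors' own old-over-young fold changes were not used, nor were 8 columns of per-sample values.

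Counts were fitted in edgeR 4.0.16 (quasi-likelihood, TMM, filterByExpr, or above 1.5 CPM in 4 libraries for ATAC) in R 4.3.3 across all features, with DESeq2 1.42.0 as an alternative and limma 3.58.1 on log2 H3K27ac signal plus 0.5. Calls required more than a 1.5-fold difference, with adjusted p under 0.05 (0.01 for ATAC). RPKM used GENCODE M21 exon lengths. The genes named are, by rule, those called with libraries that do not overlap: the 8 largest changes each way for age, 5 for other RNA comparisons and 4 for ATAC and H3K27ac, plus the largest on each gene list; some of these are not reported here. Members and lists were chosen with earlier results of these data known. Where sources do not say that samples are separate cultures or animals, p-values measure only the spread between these samples. The fits were tested on simulated data with 200 changed features of known fold, larger than the 1.5-fold that a call asks. These features were drawn only from those above a minimum mean level. The recovered shares therefore do not cover members at lower levels. The recovered shares were 96.0% for age (21670 genes), 89.0% for MEPs against GMPs (17975 genes), 97.0% for culture (19726 genes), 82.5% for transplantation (20271 genes), 97.5% for ATAC (88953 regions) and 89.5% for H3K27ac by limma (39557 peaks), with 2, 8, 9, 11, 3 and 10 false calls.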

Additional observations from a re-analysis of the deposited data

Results flagged for a closer look

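Single libraries stood apart in 7 of 98 groups of 4 to 8 values, where chance alone flags about 1 in 20. In YHSC 4, Mab21l2 was low at 0.0829 CPM and Ntf3 high at 0.249 CPM. In OHSC 8, Slc38a5 (1.75 CPM), Dlx4os (2.84 CPM) and Plagl1 (1.49 CPM) were each above the other old libraries. Cdh22 was high in OHSC 7 at 4.69 CPM and Cdkn2c in OHSC 5 at 21.0 CPM.

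Of 18 members named for the Btaf1 knockdown, 4 moved one way in culture and the other after transplantation in every library, a difference that was not tested. D630023F18Rik went from 0.0 to 0.284 CPM in culture and from 0.0769 to 0.0 CPM after transplantation. Kcnb2 went from 0.0536 to 0.474 and from 1.05 to 0.38 CPM. Nrxn2 went from 0.36 to 1.31 and from 1.92 to 0.971 CPM, and Cxcl5 from 0.871 to 0.274 and from 0.0237 to 0.622 CPM. Several of these values rest on few reads. After transplantation Cxcl5 was at 0.0475 CPM in control 1 and at 0.0527 CPM in shRNA1 replicate 2, which hardly differ.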

How the results depend on the processing

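With a fold change above 2, members called with age were 249 higher and 123 lower, accessible regions 50 and 20, culture 41 and 17, and GMPs against CMPs 137 higher. At 5 CPM or more in either age, 251 of 1294 members were called higher (19.4%, against 4.74% of all genes). A further 112 were called lower (8.66%, against 2.53%). This limit was chosen after seeing the data, and a gene can pass it through the age where it is high. After transplantation DESeq2 called 7 higher and 8 lower and no filter on low counts gave 42 and 46, without a count over all genes beside them. For H3K27ac, libraries scaled to the same median gave 114 lower, adding 0.5 to every signal gave 114 higher and 32 lower, limma 59 and 18, and limma with a replicate block 63 and 21. Detection at 0.5 CPM was 67.7% in YHSCs, 64.9% in OHSCs, 44.6, 45.8 and 45.1% in culture (control, shRNA1, shRNA2), 44.6, 44.9 and 45.5% after transplantation, 34.2% in CMPs, 30.5% in GMPs and 25.3% in MEPs. At 5 CPM it was 27.3, 28.6, 23.1, 23.8, 23.8, 23.7, 23.6, 23.6, 18.5, 17.0 and 14.9% in the same order. The cause of these shifts was not tested beyond what each setting removes.

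Leaving out 1 library at a time gave 380 to 415 higher and 195 to 245 lower with age, 141 to 186 and 96 to 109 for accessibility, 395 to 424 and 701 to 732 for MEPs against GMPs, 352 to 366 and 763 to 781 for MEPs against CMPs, 163 to 185 and 261 to 305 for GMPs against CMPs, 59 to 81 and 25 to 45 in culture, and 0 to 3 and 0 after transplantation. In culture, leaving out control 1 gave 27 lower and control 2 gave 25; after transplantation, leaving out shRNA1 replicate 2 gave 3 higher. H3K27ac gave 211 to 621 and 53 to 232: 621 higher without young replicate 1, and 232, 127 and 95 lower without young replicate 2, old replicate 1 and old replicate 2. Replicate numbers do not pair the samples (correlation of deviations -0.226 to 0.0582). A replicate block gave 372 higher and 180 lower with age, 426 and 726, 378 and 810, and 201 and 333 for the progenitor comparisons, 81 and 42 in culture, and 0 and 0 after transplantation. Of 176 results for named genes, 137 kept their call under every alternative and 39 lost it under at least 1, with 0 reversed. For 32 members without a read in any library, absence and levels under this depth cannot be told apart.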
